A study of Mus musculus with 12 samples.

Results

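Purine nucleotide synthesis and breakdown were examined through 10 mouse genes, Ppat, Gart, Pfas, Paics, Adsl, Atic, Impdh2, Gmps, Xdh and Ampd2. They were taken from the whole-liver count table of 56205 Ensembl genes by matching gene symbols to identifiers. All 10 had counts in every library, and all 10 passed the low-count filter, as did 13416 genes in all. The livers came from 12 ob/ob mice labelled as male, an obese strain without functional leptin, with 1 poly(A) RNA library per mouse. The 6 FLO mice ate standard chow, and the 6 fibrotic mice ate the same chow and received ethionine, the ethyl analogue of methionine. The labels put the agent at 0.165% DL-ethionine in drinking water over 2 weeks, but their growth protocol speaks of an injection of 0.15%. The study's methods give a shorter time in drinking water than the labels do, so dose, route and duration are uncertain. The leptin deficiency was shared by both groups, so it is not part of the contrast, and no lean mice were compared. Mice of both groups were 8 to 10 weeks old, which the study's methods give as the age when treatment began.

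The liver is a main site of purine synthesis. The de novo pathway builds IMP on phosphoribosyl pyrophosphate (PRPP), and IMP is then turned into AMP or GMP. Salvage enzymes recover bases, and the breakdown route leads through hypoxanthine and xanthine to urate, which mice oxidize further to allantoin. Ethionine is activated with ATP to S-adenosylethionine and is known for trapping hepatic adenosine in that form.

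Library totals lay between 17815568 and 20352675 counts for fibrotic and between 18275320 and 24814263 counts for FLO livers, which overlapped (two-sided exact permutation p = 0.115). FLO replicate 3 held 3773 counts of Xist and 4 of Ddx3y, where the other libraries held at most 4 and at least 556, against the label that all mice were male. It was kept in its group, and results that rest on the FLO group were also computed without it. Levels are CPM, reads of a gene relative to a TMM-adjusted library total, and a gene was called where its edgeR adjusted p (FDR) was at most 0.01 and its log2 fold change exceeded 0.5 in size. Hepatocyte markers summed to 68380 to 83220 CPM in FLO and 49270 to 82690 CPM in fibrotic livers, with 1 of 7 called higher and 1 called lower, so the labelled tissue carried its defining genes. Macrophage and Kupffer cell markers (5 of 6 called higher) summed to 140.0 to 175.6 CPM in FLO and 188.3 to 376.2 CPM in fibrotic livers. Cholangiocyte markers (3 of 5 called higher) summed to 46.98 to 87.86 CPM and 80.58 to 273.4 CPM, and endothelial markers (1 of 5 called lower) to 149.6 to 166.6 CPM and 111.9 to 142 CPM. Stellate cell markers (1 of 5 called higher) ran from 167.2 to 252.2 CPM and from 186.9 to 302.5 CPM, lymphocyte markers (0 of 2 tested called) from 5.906 to 10.54 CPM and from 7.33 to 12.73 CPM, and no marker was at 0 in all libraries. Their part in the values below was not tested, and in whole liver fewer cells of a type and less RNA per cell cannot be told apart. Fibrotic is the label of the group. Col1a1, a stellate marker, was not called (log2 fold change -0.22, SE 0.33, edgeR adjusted p = 0.611), and Lrat was the stellate marker called higher (0.72). The paper reports no difference in Col1a1 in ob/ob mice given ethionine.

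Of the 10 genes, Impdh2 and Paics fell, Adsl rose, and the other 7 were not called. Gmps and Xdh, though not called, had lower TMM-adjusted levels in every fibrotic library than in any FLO library. With library totals alone the groups overlapped for both genes. Impdh2, which opens the GMP branch, moved most, to 0.401 times its FLO level. The 3 called genes are 30% of the 10, against 29.9% of all 13416 genes tested. For rises the count was 1 of 10 against 15.9% of all genes, and for falls 2 of 10 against 14.0%. Groups did not overlap for 4 of the 10 (1 higher and 3 lower), against 30.4% of all genes. The median log2 fold change of the 10 was -0.15, beside 0.03 over all genes tested. Each of these shares is near its background.

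**Figure D1:**
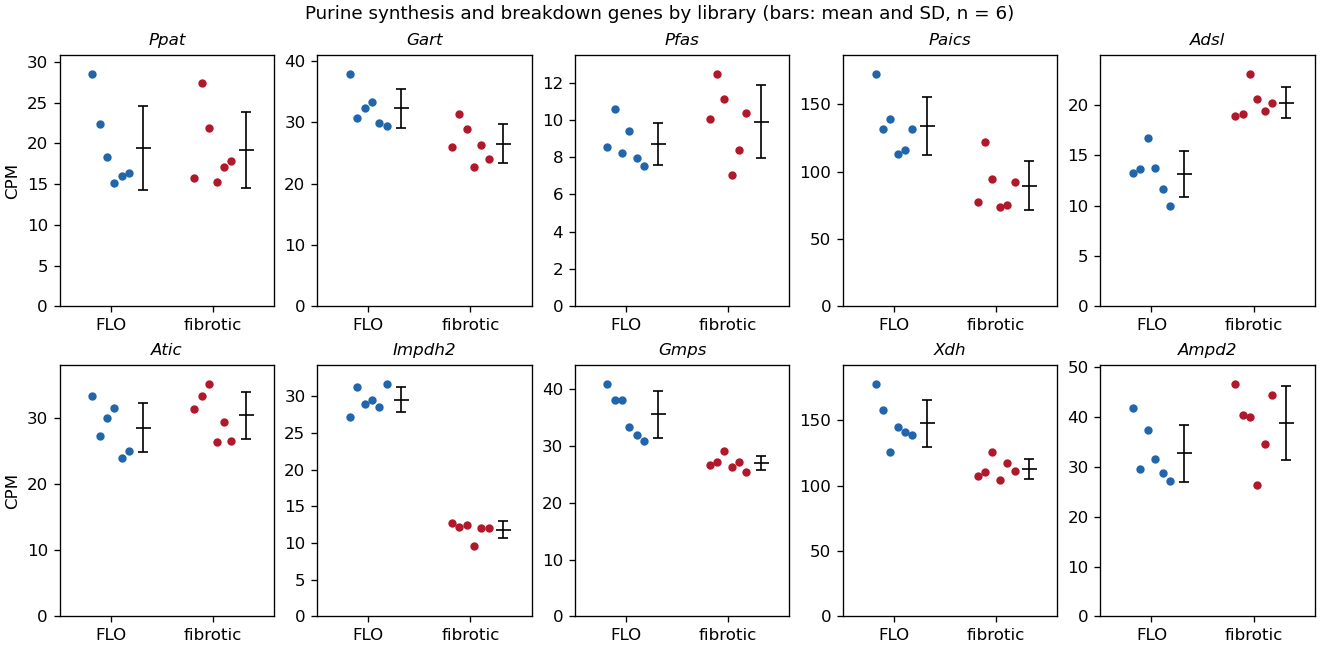
CPM of each of the 10 genes in each library, 1 panel per gene with its own vertical axis from 0, with the mean and SD of 6 libraries per group beside the points. On this TMM-adjusted scale Impdh2, Gmps and Xdh lie lower and Adsl higher in all 6 fibrotic libraries than in all 6 FLO libraries. The other 6 genes overlap.

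Sequence upstream of the genes was read because the hexamer CACGTG, the E-box bound by Myc and other basic helix-loop-helix factors, has been described at purine synthesis genes. RefSeq windows (GRCm38.p6) of 250 bases before the start were matched for 8 of the 10 genes, and Pfas and Xdh are named only. CACGTG, whose reverse complement is the same, stood in the windows of 3 genes and in 6.02% of all 32851 windows. The first counts genes and the second windows, and the difference was not tested. G and C made up 68.8% (Atic), 65.2% (Paics) and 60.8% (Impdh2) of these windows, beside a median of 52.4% over all windows. The 30 bases around each match follow on the plus strand, with the motif in capitals.
Atic, chr1:71557137-71557166: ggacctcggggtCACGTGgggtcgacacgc
Paics, chr5:76951087-76951116: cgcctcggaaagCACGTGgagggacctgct
Impdh2, chr9:108560314-108560343: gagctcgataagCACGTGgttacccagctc
The motif began 7 bases before the Atic start, 203 before the Paics start and 110 before the Impdh2 start as RefSeq gives those starts. By the GENCODE gene models the Impdh2 match and nearly all of the Atic match lie inside the gene itself, and the Paics match lies inside the neighbouring Ppat gene. These 3 genes did not share a response, since Paics and Impdh2 fell while Atic had a log2 fold change of 0.09. Adsl, the only 1 of the 10 that rose, had no CACGTG in its window, chr15:80948240-80948489 on the plus strand, which no annotated exon overlaps.
Adsl: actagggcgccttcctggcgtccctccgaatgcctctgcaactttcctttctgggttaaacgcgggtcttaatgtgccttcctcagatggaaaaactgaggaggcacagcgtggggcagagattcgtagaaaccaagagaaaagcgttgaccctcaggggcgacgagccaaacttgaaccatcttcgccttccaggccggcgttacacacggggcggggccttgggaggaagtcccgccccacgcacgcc
A match is a description of letters and says nothing of binding. Myc itself spanned 3.391 to 22.86 CPM in FLO and 6.481 to 27.89 CPM in fibrotic livers, and was not called (log2 fold change 0.51, SE 0.48, edgeR adjusted p = 0.392).

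Levels between genes can be compared only per length, here CPM per kilobase of the longest coding transcript. That length ran from 1858 bases for Impdh2 to 8105 for Gmps. Which transcript the liver uses was not determined, so the order below may depend on this choice. In FLO livers Paics stood highest at 54.1 ± 8.64 CPM per kb (SD, n = 6), followed by Xdh at 32.1 ± 3.92 and Impdh2 at 15.9 ± 0.913. Atic, Gart and Ampd2, at 10.01 ± 1.30, 9.18 ± 0.898 and 8.97 ± 1.56 CPM per kb, did not differ beyond their spread. Ppat, Gmps and Adsl, at 4.89 ± 1.29, 4.39 ± 0.502 and 3.55 ± 0.617 CPM per kb, were likewise within their spread of the next, and Pfas was lowest at 1.36 ± 0.175. In fibrotic livers Paics and Xdh remained at the top, at 36.1 ± 7.35 and 24.5 ± 1.65 CPM per kb. Impdh2 stood below Atic and Ampd2 there, at 6.38 ± 0.624 CPM per kb, next to Gart at 7.54 ± 0.901, whose libraries overlapped with it. Adsl, at 5.45 ± 0.419 CPM per kb, stood above Gmps at 3.33 ± 0.152, and Ppat, at 4.82 ± 1.16, was within the spread of Adsl.

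Among the 6 enzymes that make IMP from PRPP, Paics fell, Adsl rose, and Ppat, Gart, Pfas and Atic were not called. Ppat, the amidotransferase of the committed step, ranged from 15.18 to 28.55 CPM in FLO livers (median 17.33) and from 15.3 to 27.36 CPM in fibrotic livers (median 17.47). The groups lay on top of each other, and edgeR gave -0.02 on the log2 scale (SE 0.17, adjusted p = 0.937).

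Gart, which carries out 3 of the following reactions, ranged from 29.4 to 37.95 CPM in FLO (median 31.51) and from 22.74 to 31.38 CPM in fibrotic livers (median 26.11). In 5 of 6 fibrotic libraries Gart was below every FLO library, but the change of -0.28 on the log2 scale (SE 0.09, adjusted p = 0.0168) missed the threshold. Pfas, the glutamine-dependent enzyme that acts between 2 of the Gart reactions, had the fewest counts of the 10, from 134 to 245 per library. It ranged from 7.516 to 10.57 CPM in FLO and from 7.02 to 12.48 CPM in fibrotic livers (log2 fold change 0.19, SE 0.14, adjusted p = 0.268).

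Paics joins carboxylation of the imidazole ring to the addition of aspartate. It ranged from 113.3 to 172.9 CPM in FLO livers (median 132.0) and from 74.17 to 122.1 CPM in fibrotic livers (median 85.22). All but 1 of the fibrotic libraries lay below all FLO libraries, so the groups overlapped. Paics fell, averaging 134.2 ± 21.5 CPM in FLO and 89.5 ± 18.3 CPM in fibrotic livers (SD, n = 6 each), or -0.59 on the log2 scale (SE 0.13, edgeR adjusted p = 0.00168). Scaling by total counts only, which raises the median of all genes by 0.18 on the log2 scale, left it at -0.42 and ended the call.

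Paics and Ppat are transcribed away from each other and their annotated 5′ ends overlap on chromosome 5, Paics at 76951307 to 76967509 on the plus strand and Ppat at 76913249 to 76951578 on the minus strand (GRCm38). Because the strand setting of the counting is not given in the sources used here, reads from the shared 272 bases cannot be assigned. Within libraries the ratio of Paics to Ppat counts was 5.91 to 8.11 in FLO (median 7.36) and 4.33 to 5.20 in fibrotic livers (median 4.66). The ratios did not overlap, although each gene alone did. This ratio and those given further on were chosen after the values had been seen and carry no test.

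**Figure D2:**
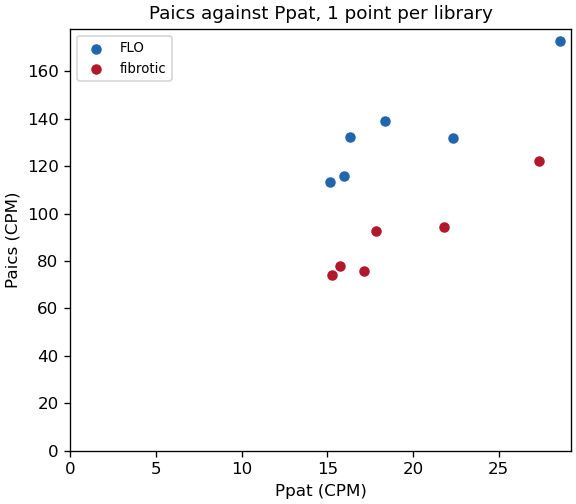
Paics CPM (vertical axis) against Ppat CPM (horizontal axis), 1 point per library, 6 FLO and 6 fibrotic. Both genes vary together within a group, and at a given Ppat level the fibrotic points lie below the FLO points.

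Adsl, adenylosuccinate lyase, acts both on the way to IMP and on the way from IMP to AMP. It ranged from 9.954 to 16.77 CPM in FLO (median 13.45) and from 18.91 to 23.12 CPM in fibrotic livers (median 19.79). Every fibrotic library lay above every FLO library. Adsl rose to 1.53 times the FLO level, averaging 13.2 ± 2.29 CPM in FLO and 20.2 ± 1.56 CPM in fibrotic livers (SD, n = 6 each), or 0.62 on the log2 scale (SE 0.11, edgeR adjusted p = 0.000259). The ratio of Adsl to Paics counts went from between 0.0753 and 0.121 in FLO to between 0.157 and 0.278 in fibrotic libraries.

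Atic, whose 2 activities close the ring to give IMP, ranged from 23.87 to 33.2 CPM in FLO (median 28.64) and from 26.35 to 35.14 CPM in fibrotic livers (median 30.39). The ranges overlapped over most of their width. The change of 0.09 on the log2 scale (SE 0.10, adjusted p = 0.472) was not called.

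Deviations of log2 CPM from the group mean were compared over the 12 libraries as a description, since points share library depth and scaling. Over the 15 pairs of de novo genes Pearson r had a median of 0.55. Ppat and Paics, whose annotated 5′ ends overlap, had r = 0.91, and Gart and Atic, on different chromosomes, had r = 0.89. Both Ppat and Paics were highest of their group in FLO replicate 1 and fibrotic replicate 2, and reads of their overlap cannot be assigned. Adsl had a lower median r of 0.22 to the other 5 (0.11 with Paics to 0.50 with Atic), and r ran from 0.51 to 0.91 among those 5. With Gmps, outside the de novo genes, Adsl had r = 0.69. Impdh2 had a median r of 0.14 to the other 9 members, from -0.20 with Adsl to 0.63 with Pfas. The 5 tested genes outside the 10 whose deviations were most like the de novo mean were D2hgdh (r = 0.967), Crebl2 (r = 0.965), Mut (r = 0.962), Pbld2 (r = 0.961) and Cul4a (r = 0.96), where the median over all tested genes was 0.00933. Their log2 fold changes between groups were -0.49, -0.58, -0.65, -1.24 and -0.74.

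The GMP branch gave the largest change of the 10 genes. Impdh2, which oxidizes IMP to XMP and is the rate-limiting enzyme of guanine nucleotide synthesis, ranged from 27.23 to 31.74 CPM in FLO (median 29.24). In fibrotic livers it ranged from 9.547 to 12.75 CPM (median 12.11), and the groups stood well apart. Impdh2 fell, averaging 29.6 ± 1.70 CPM in FLO and 11.8 ± 1.16 CPM in fibrotic livers (SD, n = 6 each), or -1.32 on the log2 scale (SE 0.08, edgeR adjusted p = 1.67e-08). Ndufaf3 lies antisense to it at 103 to 294 counts per library, so reads of the overlap are uncertain without strand.

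Impdh1, the other IMP dehydrogenase gene, rose while Impdh2 fell. It ranged from 3.008 to 4.108 CPM in FLO and from 3.881 to 9.968 CPM in fibrotic livers, above all FLO libraries in 5 of 6 (log2 fold change 0.92, SE 0.21, edgeR adjusted p = 0.00155). Impdh2 made up 87.6% to 90.05% of the counts of both genes in FLO libraries (median 89.3%) and 48.9% to 76.3% in fibrotic libraries (median 64.8%). The ratio of Impdh2 to Impdh1 counts went from a median of 8.37 to 1.87. Per length, Impdh2 stood at 15.9 CPM per kb beside 1.40 CPM per kb for Impdh1 in FLO livers, and at 6.38 beside 2.64 CPM per kb in fibrotic livers.

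**Figure D3:**
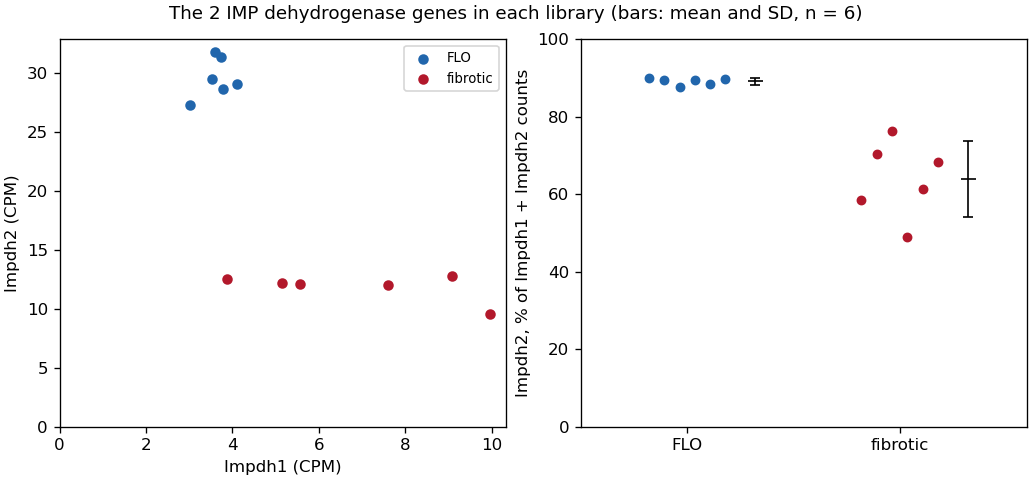
Impdh2 and Impdh1 in each library as CPM, and the share of Impdh2 in the counts of both genes, with FLO and fibrotic libraries apart. The share lies between 87.6% and 90.05% in FLO and between 48.9% and 76.3% in fibrotic libraries.

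Gmps, which aminates XMP to GMP, ranged from 30.88 to 41.02 CPM in FLO (median 35.76) and from 25.47 to 29.16 CPM in fibrotic livers (median 26.89). Its groups did not overlap in TMM-adjusted CPM but did with library totals alone. The change, -0.40 on the log2 scale (SE 0.08, adjusted p = 0.000741), passed the FDR threshold and not the fold limit. With total counts only Gmps stood at -0.22 (edgeR adjusted p = 0.0434) and missed both limits. Gmpr, GMP reductase, which returns GMP to IMP, fell to 0.4997 times its FLO level at low counts, from 0.9187 to 1.567 CPM in FLO to 0.4312 to 0.7642 CPM in fibrotic livers (log2 fold change -1.001, SE 0.24, edgeR adjusted p = 0.00271). Its call was lost with total counts only (adjusted p = 0.0124) and without the low-count filter.

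The AMP branch outside Adsl split between the adenylosuccinate synthase genes. Adssl1, named for muscle, ranged from 23.81 to 37.78 CPM in FLO and from 5.929 to 9.781 CPM in fibrotic livers, and fell by 2.08 on the log2 scale (SE 0.14, edgeR adjusted p = 2.77e-08). Adss overlapped between the groups, at 45.61 to 54.8 CPM and 41.56 to 59.24 CPM (log2 fold change 0.01, adjusted p = 0.931). The ratio of Adss to Adssl1 counts went from between 1.21 and 2.06 to between 5.08 and 9.66.

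On the breakdown side neither member was called. Xdh, xanthine dehydrogenase, forms urate from hypoxanthine and xanthine. It ranged from 125.8 to 177.9 CPM in FLO (median 142.9) and from 104.2 to 125.5 CPM in fibrotic livers (median 110.7). In TMM-adjusted CPM the groups did not overlap, although the nearest libraries almost met, and with library totals alone they overlapped. At -0.39 on the log2 scale (SE 0.09, adjusted p = 0.00157), Xdh passed the FDR threshold and not the fold limit. With total counts only Xdh stood at -0.21 (edgeR adjusted p = 0.0478) and missed both limits.

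Ampd2, the AMP deaminase gene of the list, ranged from 27.22 to 41.84 CPM in FLO (median 30.63) and from 26.3 to 46.7 CPM in fibrotic livers (median 40.25). The groups overlapped (log2 fold change 0.24, SE 0.14, adjusted p = 0.150). Its paralog Ampd3 was called higher (log2 fold change 1.56, SE 0.45, edgeR adjusted p = 0.00857), but it ran from 0.3917 to 1.326 CPM in FLO and from 1.019 to 7.441 CPM in fibrotic livers. Leaving out fibrotic replicate 1, 4 or 6 or any FLO library ended that call, and without fibrotic replicate 4, the highest, the log2 fold change was 0.99 (adjusted p = 0.0154).

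Around Xdh the route to allantoin changed at several genes. Nt5e, the cell-surface nucleotidase that makes adenosine from extracellular AMP, ranged from 14.87 to 47.24 CPM in FLO (median 19.81) and from 89.36 to 123.8 CPM in fibrotic livers (median 104.7). It rose by 2.08 on the log2 scale (SE 0.26, edgeR adjusted p = 1.63e-05). Pnp, which cleaves inosine and guanosine, ranged from 57.92 to 94.05 CPM in FLO and from 159.8 to 229.4 CPM in fibrotic livers.

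Pnp rose to 2.64 times its FLO level (log2 fold change 1.40, SE 0.12, edgeR adjusted p = 3.05e-07), and its near-identical neighbour Pnp2, at 0.1016 to 2.106 CPM, is uncertain (log2 fold change 2.04). Gda, guanine deaminase, rose (log2 fold change 0.84, edgeR adjusted p = 4.85e-07). Uox, urate oxidase, which acts on urate in mice, ranged from 1841 to 2129 CPM in FLO (median 1985) and from 44.69 to 405.3 CPM in fibrotic livers (median 128.2). Uox fell to 0.0947 times its FLO level (log2 fold change -3.40, SE 0.45, edgeR adjusted p = 4.16e-05). Urah and Urad, which act after Uox on the way to allantoin, were not called (log2 fold change -0.08 and -0.55, edgeR adjusted p = 0.549 and 0.191).

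The fibrotic libraries spread widely for Uox, yet none came near the FLO range. Within libraries the ratio of Xdh to Uox counts ran from 0.0679 to 0.0835 in FLO and from 0.272 to 2.33 in fibrotic livers, and that of Pnp to Xdh from 0.388 to 0.747 and from 1.32 to 2.06. Aox1, an aldehyde oxidase of the family nearest to Xdh, fell (log2 fold change -2.62, edgeR adjusted p = 2.61e-08). Aox3 was called higher (log2 fold change 0.52, adjusted p = 0.00594), a call lost without fibrotic replicate 1, 2, 3 or 6 or FLO replicate 2, 3, 5 or 6 (0.44 to 0.52), and reads may be split between these related genes.

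**Figure D4:**
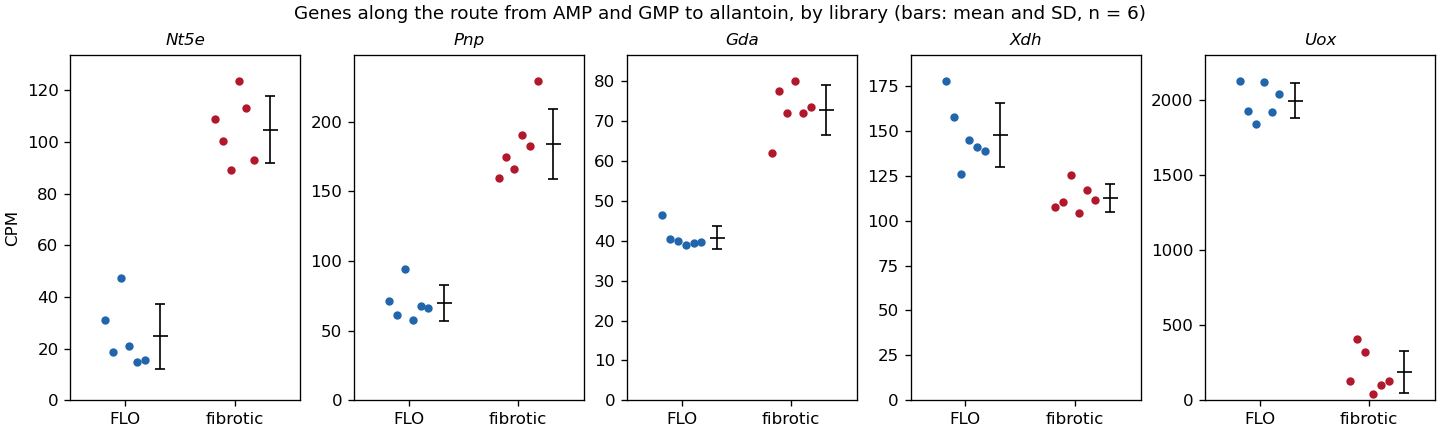
CPM in each library of Nt5e, Pnp, Gda, Xdh and Uox, which act along the route from nucleotides to allantoin, with the mean and SD of 6 libraries per group and an axis from 0 for each gene. On this TMM-adjusted scale Nt5e, Pnp and Gda are higher and Xdh and Uox lower in all fibrotic libraries than in all FLO libraries.

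The remaining genes of purine metabolism were taken from lists by role, some of which hold enzymes that also or mainly act on pyrimidine nucleotides. Of 73 such genes 66 were tested, and 16 were called higher and 13 lower, or 24.2% and 19.7%, with a median log2 fold change of 0.01. Beside 15.9% and 14.0% of all genes tested, calls were more frequent in both directions, a difference that was not tested. With scaling by total counts only the split was 19 higher and 10 lower.

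The nucleotidases, which remove phosphate from nucleoside monophosphates, were the list with most rises, at 5 of 6 tested and 0 falls. Of the risen genes, Nt5c3 and Nt5m are known for pyrimidine nucleotides, so these rises are not all of purine enzymes. Nt5c2, the cytosolic enzyme acting on IMP and GMP, rose by 1.06 on the log2 scale (edgeR adjusted p = 1.13e-07). Nt5c3b and the mitochondrial Nt5m had log2 fold changes of 1.91 and 0.67, all 5 risen genes lay above all FLO libraries, and Nt5c was not called (0.29). Nt5c1a and Nt5c1b were not tested.

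None of the 4 PRPP supply genes was called. Prps1, which makes PRPP, ranged from 26.98 to 33.25 CPM in FLO and from 20.22 to 22.61 CPM in fibrotic livers, and its log2 fold change of -0.46 (adjusted p = 8.05e-05) missed the fold limit. Among 5 salvage genes, Dguok, the mitochondrial deoxyguanosine kinase, fell by 0.63 on the log2 scale. Hprt, which recovers hypoxanthine and guanine, was called higher at 0.51 (edgeR adjusted p = 9.36e-05), just over the fold limit. Its call was lost without any of 6 single libraries (0.48 to 0.49), namely fibrotic replicates 1 and 2 and FLO replicates 1 to 4. Adk, adenosine kinase, ran from 601.8 to 690.0 CPM in FLO and from 469.6 to 542.5 CPM in fibrotic livers without passing the fold limit (log2 fold change -0.39, adjusted p = 0.000698).

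Ahcy, which hydrolyses S-adenosylhomocysteine and so releases adenosine, was listed with its paralogs Ahcyl1 and Ahcyl2, which are not known for that activity. Ahcy fell from 1968 to 2474 CPM in FLO to 763.9 to 1577 CPM in fibrotic livers (log2 fold change -1.15, SE 0.17, edgeR adjusted p = 5.61e-05). Ahcyl2 rose by 0.56 on the log2 scale, and Ahcyl1 was not called (0.22). Of 10 nucleotide kinases tested 3 fell and 1 rose. Ak3 and Ak4, adenylate kinase genes of mitochondria, fell by 0.88 and 1.29 on the log2 scale. Nme3 fell by 0.67, and Nme4, a mitochondrial nucleoside diphosphate kinase, rose by 2.34 from 0.8126 to 1.518 CPM to 4.867 to 6.532 CPM.

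Formyl groups for the Gart and Atic reactions come from folate. Of 8 genes listed under formyl group supply 3 fell and 0 rose, and 1 of the 3, Aldh1l1, consumes formyl groups and does not supply them. Shmt1, Aldh1l1 and Mthfs fell by 1.03, 0.83 and 0.64 on the log2 scale, and none of the 3 overlapped between groups. Mthfd1, Mthfd1l and Mthfd2 of the same list were not called (log2 fold change -0.19, -0.26 and 0.82, edgeR adjusted p = 0.234, 0.328 and 0.012). Among 10 transport genes tested, Slc2a9, a urate transporter, fell by 0.79, Slc17a1 rose by 0.89, and Slc28a2, a purine nucleoside carrier, was called higher at 0.995 with levels of at most 1.697 CPM. The Slc28a2 call was lost without fibrotic replicate 1, 2 or 4 or FLO replicate 1, 4, 5 or 6 (0.899 to 1.003). None of 3 ribonucleotide reductase genes and none of 2 adenosine receptor genes tested was called, and Ampd1, Ak5, Slc28a3, Adora2b and Adora3 were not tested.

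**Figure D5:**
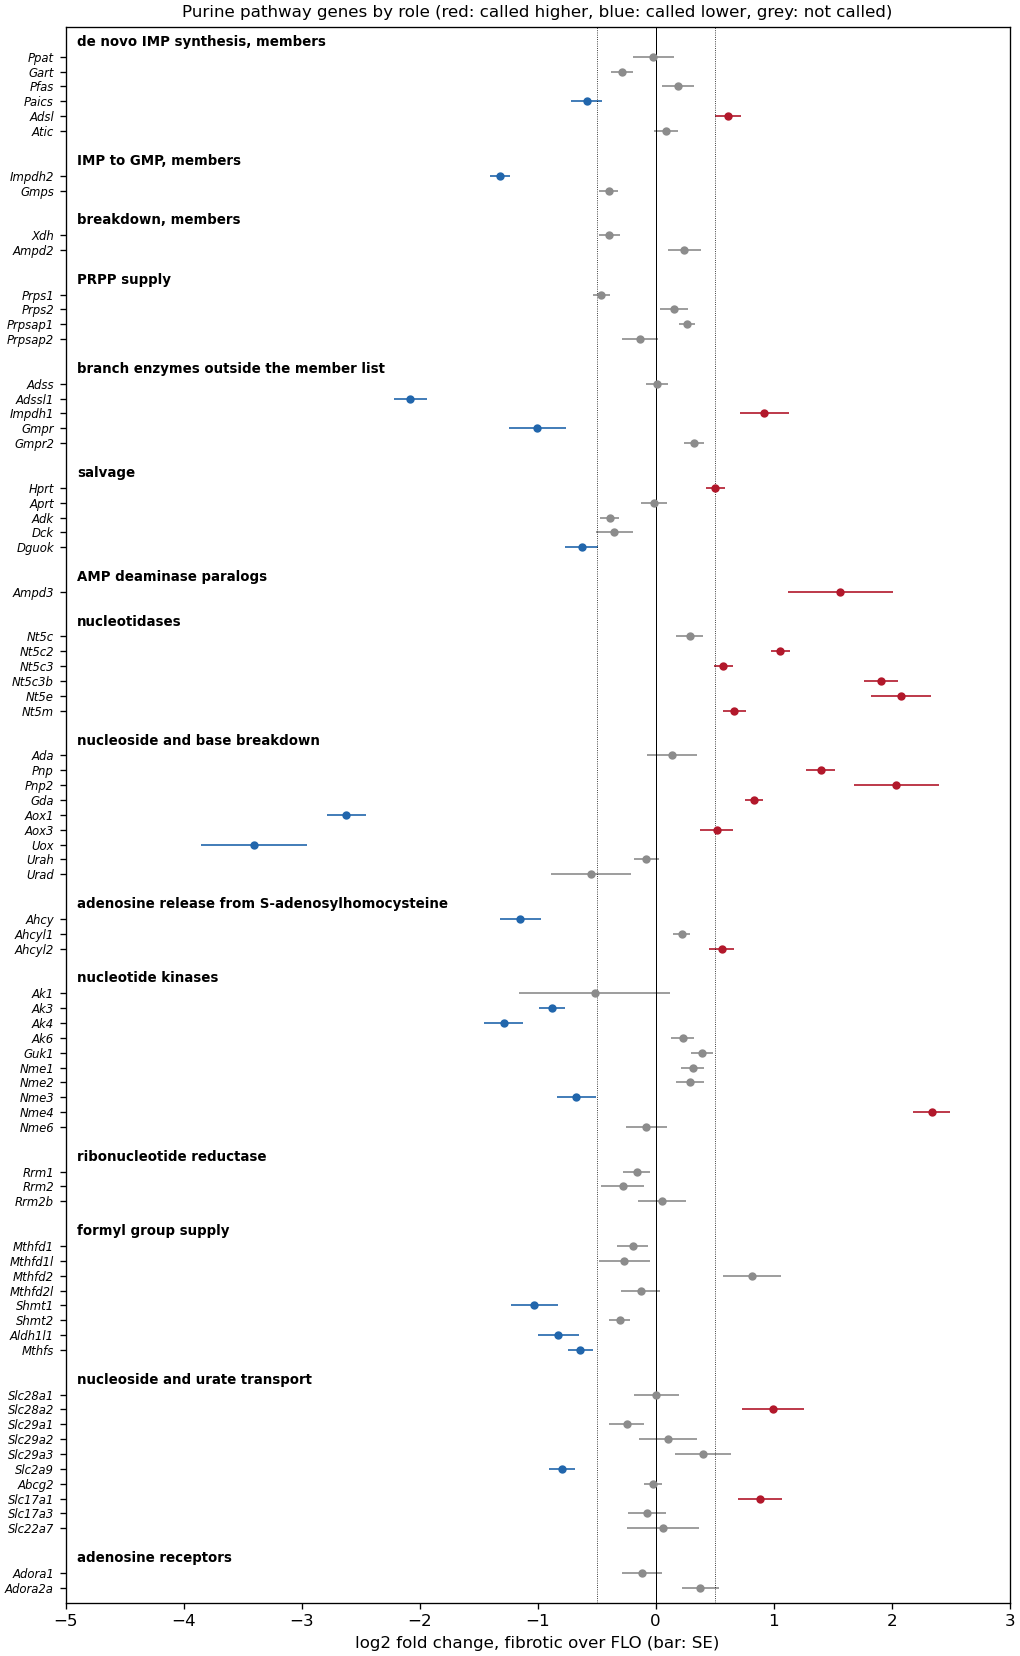
Log2 fold change (fibrotic over FLO, edgeR) of the 10 members and the other tested purine genes, grouped by list, with bars of 1 SE and colours for called higher, called lower and not called. The nucleotidases lie to the right of 0, while the called genes listed under formyl group supply and 3 of 4 called kinases lie to the left.

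Proliferating cells draw on purine synthesis, and their genes are given beside the members. Of 8 proliferation genes 4 were called lower and 1 (Mcm2) higher, and they summed to 48.65 to 62.43 CPM in FLO and 34.54 to 53.86 CPM in fibrotic livers. Their part in the fall of Impdh2 and Paics was not tested. Of the transcription factor genes listed for these pathways, Nfe2l2 rose by 1.28 and E2f1 fell by 0.69 on the log2 scale. Scaling by total counts only ended the calls of E2f1, Dguok and Mthfs, at -0.51 (adjusted p = 0.0122), -0.46 and -0.47. Atf4 lay higher in all fibrotic libraries with a log2 fold change of 0.49 (adjusted p = 0.00255), under the fold limit, and Max had 0.09 (adjusted p = 0.444).

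Without FLO replicate 3, the library at odds with its labelled sex, Impdh2, Paics and Adsl kept their calls with log2 fold changes of -1.33, -0.58 and 0.70. The other purine genes then held 13 rises and 13 falls. Leaving out any 1 of the 12 libraries kept the calls of all 3 members, at -1.34 to -1.26 for Impdh2, -0.69 to -0.50 for Paics and 0.55 to 0.70 for Adsl.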

How the data were processed

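Whole-liver poly(A) RNA of 12 mice (6 fibrotic, 6 FLO) was measured, 1 library per mouse. The authors deposited 1 table of raw, unnormalized counts by Ensembl gene. The submitters' processing notes name mm10, bcl2fastq and STAR 2.7.3a, the study's methods describe a stranded kit, and the annotation release and strand setting of the counting are not given in the sources used here. Symbols matched 51745 of 56205 identifiers, and unmatched identifiers held 0.0587% of counts. Group and number came from sample titles. Libraries of a group differed by more than sampling noise (smallest chi-square per degree of freedom 11.1).

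The comparison used the edgeR 4.0.16 quasi-likelihood test (R 4.3.3, robust, TMM, filterByExpr, all 12 libraries, no covariate) with Benjamini-Hochberg adjustment over 13416 genes, called at FDR 0.01 or less and an absolute log2 fold change over 0.5, thresholds of the study. The SE is the absolute log2 fold change divided by the square root of F. Precision is set by the SD between libraries, which includes counting error. Log2 CPM used a prior count of 2. Total counts were compared by an exact permutation test. Coordinates, lengths and overlaps are from GENCODE M21 (GRCm38) and upstream windows from RefSeq (GRCm38.p6). The fit was tested on simulated data.

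The members and lists were chosen with earlier results of these data known. Besides the 10 members, the genes named are the 4 called genes of each list with the largest absolute log2 fold change and up to 2 called in the other direction, plus the 5 most like the de novo mean. Others (Adss, Adk, Prps1, Nt5c, Nt5c3, Urah, Urad, Ahcyl1, Mthfd1, Mthfd1l, Mthfd2, Cad, Myc, Max, Atf4, Mcm2, Col1a1, Lrat) were named after their values were seen. Alternatives were RLE, upper quartile and total-count scaling, 2 other low-count filters, a fit that was not robust, DESeq2 1.42.0, limma-voom (limma 3.58.1), a replicate block, FDR 0.05 with no fold limit, and each library left out. 1 gene of the lists is not reported here and was left out of their counts.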

Additional observations from a re-analysis of the deposited data

Results flagged for a closer look

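Single libraries stood far from their group, by a gap test at the 95% level, in 7 of 94 groups of 6 examined, where chance gives about 4.7. The gap is given as a fraction of the group's whole range. Impdh2 in fibrotic replicate 4 was the lowest at 9.547 CPM, with the others at 12.03 to 12.75 CPM (gap 0.776). The same library was the highest for Ampd3 at 7.441 CPM, with the others at 1.019 to 2.667 CPM (gap 0.743). Fibrotic replicate 2 was the highest for Adssl1 at 9.781 CPM against 5.929 to 7.322 CPM (gap 0.638) and for Ctps2 at 18.34 CPM against 16.29 to 16.75 CPM (gap 0.775). FLO replicate 1 was the highest for Gda at 46.37 CPM against 38.83 to 40.54 CPM (gap 0.773) and for Dpys at 307.9 CPM against 241.3 to 264.5 CPM (gap 0.651). Pnp in FLO replicate 3 stood at 94.05 CPM against 57.92 to 70.98 CPM (gap 0.638).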

How the results depend on the processing

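Scaling by total counts only raised the median of all genes by 0.18 on the log2 scale, took the share of rises among calls from 53.3% to 71.8% (3137 higher and 1233 lower), left 1 member called lower, put Paics at -0.42 (adjusted p = 0.00482) and turned Ppat to 0.15. At an FDR of 0.05 with no fold limit 1 of the 10 members was called higher and 5 lower, where 6994 of all 13416 genes were called in either direction. The log2 fold change of Ppat ran from -0.15 to 0.12 when single libraries were left out and was never called. DESeq2 called 4654 genes. Same-numbered libraries deviated with correlations of -0.162 to 0.104, and 0 of 12 correlated best with their own number. No pairing by number was seen, though these correlations cannot exclude a weak one. With a replicate block 3780 genes were called, with 1 member higher and 2 lower and 13 other purine genes higher and 12 lower. Over the members' fold changes under all alternatives 202 kept direction and call, 1 was weaker and 7, all Ppat, changed sign. A kept call includes genes called in neither fit, such as Gmps and Xdh, which lost the FDR threshold with total counts only. Over the other named genes 726 kept direction and call, 47 were weaker and 0 changed sign. Among them Hprt and Aox3 were not called with RLE or upper quartile factors (Hprt 0.49 and 0.48, Aox3 0.499 and 0.49), nor Hprt with DESeq2 (0.49). Ampd3 and Slc28a2 were not called without the low-count filter (1.55 and 0.99), nor Ampd3 by limma-voom (1.35). The block ended the calls of Gmpr, Ampd3, Aox3 and Slc28a2. The cause was not tested. Pfas had the fewest counts among the members (134 to 245 per library), but its SE of 0.14 was that of Ampd2. Low counts limit the precision of Impdh1, Gmpr, Ampd3, Pnp2 and Slc28a2 among the other named genes.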

Other observations

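Pyrimidine genes were read beside the purine genes. Of 5 pyrimidine synthesis genes Ctps2, which makes CTP from UTP, rose by 0.80 on the log2 scale (edgeR adjusted p = 6.63e-06) and 0 fell, and Cad, which holds the opening activities of the pathway, had 0.47 (adjusted p = 0.00448), under the fold limit. Of 11 genes of pyrimidine salvage and breakdown 3 rose and 5 fell. Dpys, the dihydropyrimidinase of uracil and thymine breakdown, fell, averaging 262 ± 23.6 CPM in FLO and 10.7 ± 4.95 CPM in fibrotic livers (SD, n = 6 each), or -4.62 on the log2 scale (SE 0.27, edgeR adjusted p = 2.3e-08). Dpyd, the enzyme before it, Upp2, uridine phosphorylase, and Tk1, thymidine kinase, fell by 1.79, 2.07 and 1.53 on the log2 scale. Cda, cytidine deaminase, and Uck1, uridine-cytidine kinase, rose by 1.30 and 0.79.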
